A study of Mus musculus with 12 samples.

Results

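The 10 genes followed belong to extracellular proteolysis and comprise the matrix metalloproteinases *Mmp2*, *Mmp3*, *Mmp9*, *Mmp12*, *Mmp13*, *Mmp14* and *Mmp19*, the related proteinase *Adamts1*, and the tissue inhibitors *Timp1* and *Timp2*. They were taken by gene symbol, at a time when earlier results of these data were known, and make up 10 of the 55401 genes with counts. RNA was sequenced from microglia sorted as CD45int CD11b+ cells from male mice, in 12 libraries of 4 groups with 3 replicates each. WT mice were CX3CR1 wt/wt:HDAC3 loxp/loxp and miKO mice were CX3CR1 CreER/wt:HDAC3 loxp/loxp, so that the floxed *Hdac3* alleles were common to all groups. Recombination had been induced with tamoxifen on 5 days at 6 to 8 weeks of age, and surgery followed at least 1 month later. WT-tFCI and miKO-tFCI mice underwent transient focal cerebral ischemia by occlusion of the left middle cerebral artery for 60 min, and their cells were taken on day 3. WT-Sham and miKO-Sham mice had the operation without the occlusion. Each replicate pooled cells of 3 to 4 hemispheres. In miKO mice one *Cx3cr1* allele carries CreER, and loss of HDAC3 and loss of that allele cannot be told apart.

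Matrix metalloproteinases are zinc-dependent endopeptidases that are made as inactive precursors and cleave collagens, laminins, fibronectin, proteoglycans and many proteins at the cell surface. The TIMPs bind their active sites and block them, and the balance of both sets how far matrix and basal lamina are broken down. After ischemic stroke, gelatinases are known for opening of the blood-brain barrier in the acute phase, whereas several of the same enzymes take part in later remodelling. RNA levels as measured here do not report the activation of the precursors.

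The libraries held 7697864 to 9452222 counts on genes, and 16451 genes passed the filter on low counts and were tested. A gene was called where edgeR's quasi-likelihood test, with batch as a term, gave an adjusted p (Benjamini-Hochberg, all tested genes) below 0.05 together with a log2 fold change beyond 0.58 in either direction. Replicate 1 of each group was sequenced in batch 1 and replicates 2 and 3 in batch 2. *Hdac3* was lower in miKO in each condition, with 20.9 to 25.8 CPM (counts scaled to a common library size) against 34.98 to 46.4 in Sham and 27.2 to 36.0 against 43.9 to 54.0 after tFCI, without overlap (log2 fold change -0.81 and -0.71, adjusted p = 0.00281 and 0.0127). Replicates 1 and 2 of miKO-Sham lay closer together than any other pair of replicates, and 6 members were still called in miKO-Sham vs. WT-Sham without either of them. Microglial markers (8 of 8 detected) summed to 20730 to 27090 CPM in WT-Sham, 14450 to 19140 in miKO-Sham, 13370 to 14240 in WT-tFCI and 5676 to 11400 in miKO-tFCI. Of these 8 markers, 4 were called lower in miKO-Sham vs. WT-Sham, 6 in WT-tFCI vs. WT-Sham, 5 in miKO-tFCI vs. WT-tFCI and 8 in miKO-tFCI vs. miKO-Sham. The 8 include *Cx3cr1*, of which 1 allele carries CreER in miKO mice. Its mean was 3862 CPM in WT-Sham, 1196 in miKO-Sham, 1527 in WT-tFCI and 438 in miKO-tFCI. A lower *Cx3cr1* in miKO cannot be told apart from loss of that allele. Markers of other cells were present as well. Those of fibroblasts and mural cells (8 genes, *Col1a1*, *Dcn* and *Lum* among them) summed to 5.04 to 6.67 CPM in WT-Sham, 13.8 to 15.95 in miKO-Sham, 190 to 878 in WT-tFCI and 476 to 1802 in miKO-tFCI, with *Rgs5* at 0 in WT-Sham. Monocyte markers (7 genes) summed to 14.5 to 101, 58.3 to 114, 78.1 to 218 and 331 to 652 CPM in the same order, and markers of border-associated macrophages (7 genes) to 101 to 130, 74.9 to 307, 175 to 269 and 339 to 816 CPM. In bulk libraries a change in the number of cells of a type and a change in RNA per cell cannot be told apart.

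All 10 genes passed the filter. *Mmp3* and *Timp1* passed through the tFCI groups alone, and *Mmp13* had enough counts in all replicates of miKO-tFCI only, so for these 3 genes a difference between groups was a condition for being tested. In WT-tFCI vs. WT-Sham, 6 of the 10 genes were called higher, where 20.9% of all tested genes were, and 0 were called lower, where 11.7% of all were. None was lower at an unadjusted p under 0.05 either, nor with DESeq2. In miKO-tFCI vs. WT-tFCI, 5 were called higher (4.08% of all tested genes) and 1 lower (4.71% of all). In miKO-Sham vs. WT-Sham, 4 were called higher (8.58% of all) and 2 lower (6.80% of all). In miKO-tFCI vs. miKO-Sham, 6 were called higher (21.9% of all) and 1 lower (13.9% of all). Every member called in these comparisons moved in the same direction within batch 1 and within batch 2. The median log2 fold change of the members was 1.60, 1.22, 1.42 and 2.45 in these comparisons, against 0.02, 0.04, 0.04 and 0.03 over all tested genes, and *Mmp3* and *Timp1* were left out of the median of miKO-Sham vs. WT-Sham because both Sham groups held at most 5 counts in all.

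**Figure D1:**
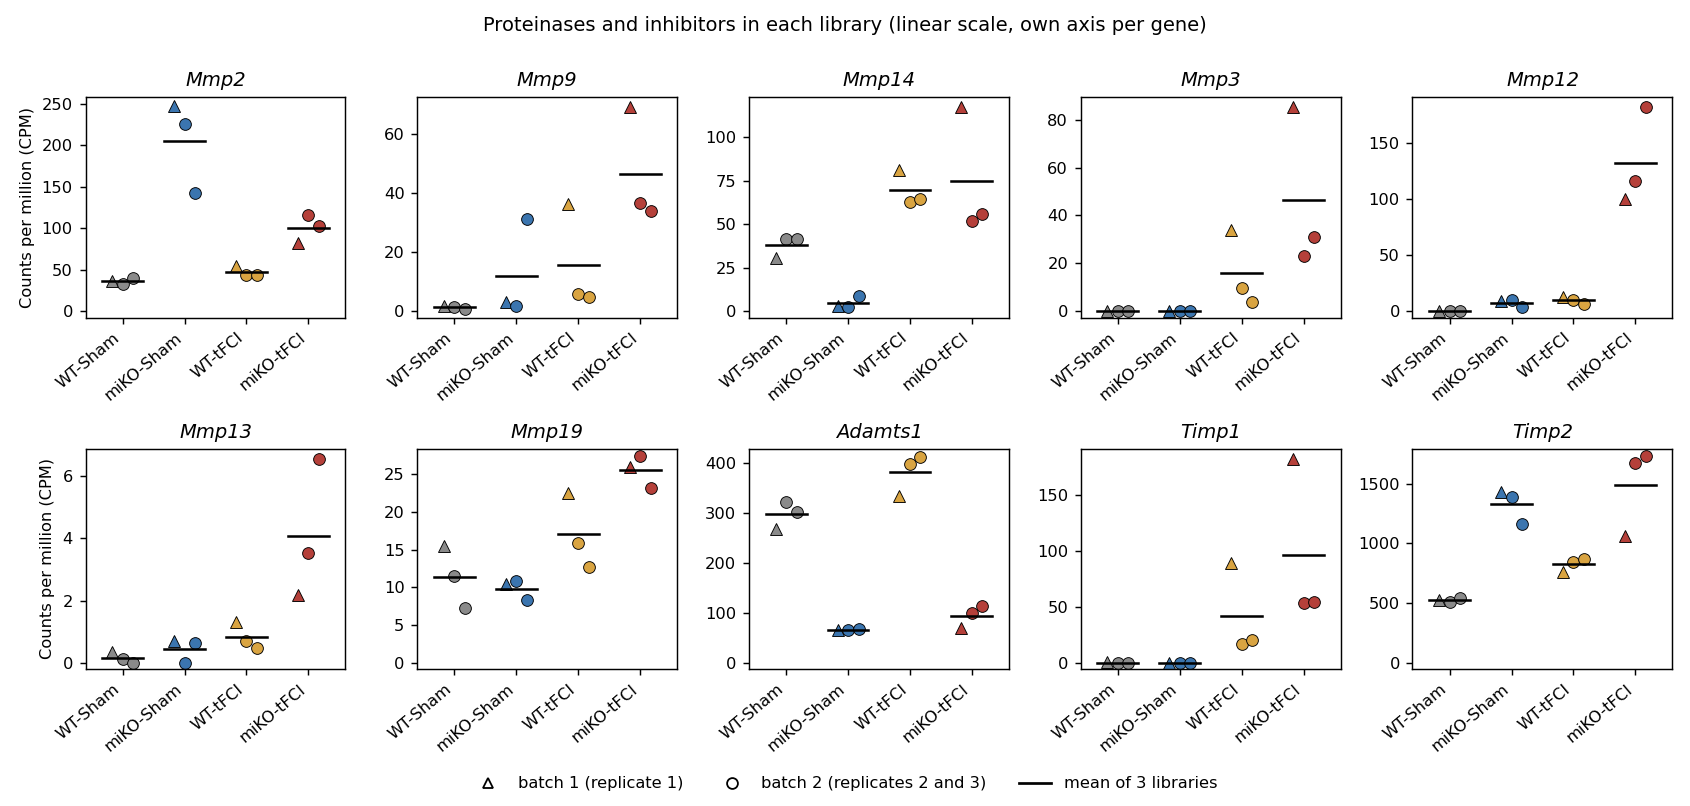
Level of each of the 10 genes in each library, in CPM on a linear axis of its own, with triangles for replicate 1 (batch 1), circles for replicates 2 and 3 (batch 2) and a bar at the mean of 3 libraries. *Adamts1* is low in both miKO groups, *Mmp14* is low in miKO-Sham alone, *Mmp2* is highest in miKO-Sham, and *Mmp3* and *Timp1* are at or near 0 in all Sham libraries.

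Of the members, *Mmp13*, *Mmp12* and *Mmp3* lie in one cluster of metalloproteinase genes on chromosome 9, and each had its highest mean in miKO-tFCI. So did *Mmp9*, *Mmp14*, *Mmp19*, *Timp1* and *Timp2*, which lie elsewhere. The 250 bases before the starts of *Mmp3*, *Mmp12* and *Mmp13* are shown because each of these neighbours was called higher in miKO-tFCI vs. miKO-Sham. The members *Mmp14*, *Mmp19* and *Timp1* and the cluster genes *Mmp8* and *Mmp27* were called higher there as well. Windows of *Mmp8* and *Mmp27* are not shown. The windows were read from RefSeq (GRCm38.p6), which had an entry for 7 of the 10 genes. Capitals mark an AP-1 site (TGAGTCA, or TGACTCA where it is read on the other strand) and a TATA box (TATAAA), both searched on both strands. The windows are chr9:7445572-7445821 for *Mmp3*, chr9:7347124-7347373 for the second of the annotated *Mmp12* starts and chr9:7272264-7272513 for *Mmp13*, all on the + strand. The window of the first *Mmp12* start, chr9:7344147-7344396, held no match to either motif and is not shown.
Mmp3: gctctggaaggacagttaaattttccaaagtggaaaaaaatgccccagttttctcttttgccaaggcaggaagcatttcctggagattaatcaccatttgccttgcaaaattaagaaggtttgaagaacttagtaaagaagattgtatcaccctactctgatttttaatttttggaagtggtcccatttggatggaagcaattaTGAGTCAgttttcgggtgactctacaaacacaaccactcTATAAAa
Mmp12: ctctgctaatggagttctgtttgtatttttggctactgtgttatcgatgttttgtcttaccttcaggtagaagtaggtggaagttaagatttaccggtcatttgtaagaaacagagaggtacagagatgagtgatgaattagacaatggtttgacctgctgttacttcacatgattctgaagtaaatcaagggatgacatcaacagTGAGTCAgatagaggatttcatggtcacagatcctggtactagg
Mmp13: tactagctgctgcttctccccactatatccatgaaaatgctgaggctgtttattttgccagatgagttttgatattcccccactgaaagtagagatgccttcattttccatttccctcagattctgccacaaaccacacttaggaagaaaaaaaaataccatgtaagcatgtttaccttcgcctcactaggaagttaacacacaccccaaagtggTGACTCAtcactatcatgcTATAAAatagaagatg

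Each of these 3 windows held 1 AP-1 site, which began 46, 44 and 35 bases before the start of *Mmp3*, *Mmp12* and *Mmp13*, and the other *Mmp12* start held none. AP-1 sites were found in 4.46% of all 32817 promoter windows of this length, and in no other of the 7 genes. Of the genes without one, *Mmp14* and *Timp1* were called higher in miKO-tFCI vs. miKO-Sham as well. A TATAAA was present before *Mmp3*, *Mmp13* and *Adamts1*, against 12.4% of all windows. It began 7, 16 and 32 bases before their starts. A PEA3/Ets motif (AGGAAG, both strands, 29.5% of all windows) was present before *Mmp3*, *Mmp13*, *Mmp14*, *Timp1* and the first *Mmp12* start. The windows of *Mmp14*, *Adamts1*, *Timp1* and *Timp2* held a GC box (GGGCGG, both strands, 32.7% of all windows), with 2, 3, 1 and 1 matches, whereas those of the cluster genes held none. A match is a description of these letters, and no measurement of binding was made. *Mmp2*, *Mmp9* and *Mmp19* had no entry.

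Of the gelatinases, which degrade gelatin and type IV collagen of the basal lamina, *Mmp2* (ENSMUSG00000031740, chromosome 8) was 5.56-fold higher in miKO-Sham than in WT-Sham. Its CPM was 36.4, 33.5 and 40.2 in WT-Sham and 247, 226 and 143 in miKO-Sham. After tFCI it was 54.9, 44.3 and 44.0 in WT and 82.9, 116 and 103 in miKO. All miKO libraries lay above all WT libraries in both conditions. The log2 fold change of miKO against WT was 2.48 ± 0.20 (SE, adjusted p = 1.08e-06) in Sham and 1.08 ± 0.20 (adjusted p = 0.00307) after tFCI. After tFCI it fell in miKO, by 1.02 on the log2 scale (SE 0.19, adjusted p = 6.71e-04), whereas the difference in WT was 0.37 ± 0.20 (adjusted p = 0.147). Of the tested genes, *Ear2*, *Blvrb* and *Ear1* had the group means most like those of *Mmp2*, with a root mean square difference of 0.09 to 0.11 on the log2 scale over 4 groups.

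*Mmp9* (ENSMUSG00000017737, chromosome 2), the other gelatinase and a product of neutrophils and activated macrophages, had a level 9.59-fold that of WT-Sham in WT-tFCI. It was at 1.80, 1.46 and 0.92 CPM in WT-Sham, 36.4, 6.002 and 4.995 in WT-tFCI and 69.2, 36.8 and 33.9 in miKO-tFCI. In miKO-Sham it was at 3.19, 1.80 and 31.4 CPM, and replicate 3 stood far above the others. The log2 fold change after tFCI in WT was 3.26 ± 1.00 (adjusted p = 0.0181), with 4.16 within batch 1 and 2.03 within batch 2. This call was lost in batch 2 alone (2.21, adjusted p = 0.107), without WT-Sham replicate 1 (3.09, adjusted p = 0.0729) and without WT-tFCI replicate 1 (1.98, adjusted p = 0.161).

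The call of *Mmp9* in miKO-Sham vs. WT-Sham (3.36 ± 1.01, adjusted p = 0.0309) was lost under 6 of 20 alternatives and rested on miKO-Sham replicate 3, without which the value was 0.56 (adjusted p = 0.574). Without miKO-Sham replicate 1 it was 4.25 (adjusted p = 0.00317). In miKO-tFCI vs. WT-tFCI the difference of 1.76 ± 0.76 was not called (adjusted p = 0.158). The value was 0.92 for batch 1 and 2.64 for batch 2, and the fit to batch 2 alone called it (adjusted p = 0.0402). Markers of border-associated macrophages summed to 307 CPM in miKO-Sham replicate 3 and to 76.1 and 74.9 in replicates 1 and 2, whereas neutrophil markers other than *Csf3r*, which microglia also express, summed to 385, 348 and 371. In WT-Sham replicate 1 those 11 neutrophil markers summed to 863 CPM while *Mmp9* was at 1.80. After tFCI they summed to 162, 203 and 218 CPM in WT and to 728, 1003 and 996 CPM in miKO, the direction of the *Mmp9* difference. Of the whole list, *Csf3r* included, 7 of 11 tested markers were called higher in miKO-tFCI vs. WT-tFCI. Within both tFCI groups, however, these markers were lowest in replicate 1, where *Mmp9* was highest. The same held for markers of border-associated macrophages, at 175, 269 and 250 CPM in WT-tFCI and 339, 631 and 816 in miKO-tFCI. Monocyte markers were highest in replicate 1 of both tFCI groups, as *Mmp9* was. Markers of fibroblasts and mural cells, endothelial cells and astrocytes, among others, were highest there too. In miKO-Sham monocyte markers summed to 61.8, 58.3 and 114 CPM, with the highest sum in replicate 3. The part of other cells in the *Mmp9* counts was not tested. The gene with group means most like *Mmp9* was *Chil3* (root mean square difference 0.07), which is itself one of the monocyte markers.

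*Mmp14* (ENSMUSG00000000957, chromosome 14) encodes a membrane-anchored enzyme that, with TIMP2, activates the MMP2 precursor. It was 7.48-fold lower in miKO-Sham than in WT-Sham and did not differ detectably between the genotypes after tFCI. Its CPM was 30.8, 41.5 and 41.7 in WT-Sham and 3.33, 2.64 and 9.09 in miKO-Sham. After tFCI it was 81.3, 62.7 and 64.3 in WT and 117, 51.7 and 55.7 in miKO. The Sham groups did not overlap, and the tFCI groups did. The log2 fold change of miKO against WT was -2.90 ± 0.39 (adjusted p = 8.83e-05) in Sham and 0.08 ± 0.32 after tFCI (adjusted p = 0.900, 95% interval -0.54 to 0.70), and the value was 0.53 for batch 1 and -0.24 for batch 2. In miKO *Mmp14* rose after tFCI by 3.83 ± 0.39 on the log2 scale (adjusted p = 4.17e-06). The size of both values depended on miKO-Sham replicate 3, without which they were -3.77 in Sham (adjusted p = 5.33e-06) and 4.66 for the rise in miKO (adjusted p = 6.87e-07). In WT the value of 0.84 ± 0.32 lay just inside the threshold (adjusted p = 0.0494) and was lost under 12 of 21 alternatives, with DESeq2 among them (adjusted p = 0.168). *Rcn1*, *Efnb2* and *Ccl9* had the most similar group means (0.16 to 0.27). After tFCI replicate 1 was highest for *Mmp14* in both genotypes, as it was for markers of fibroblasts and mural cells. These markers summed to 13.8 to 15.95 CPM in miKO-Sham and 476 to 1802 in miKO-tFCI. In WT-Sham they summed to 5.04 to 6.67 CPM, below miKO-Sham, whereas *Mmp14* was higher there. The part of other cells in the *Mmp14* counts was not tested.

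A dependence of the genotype difference on surgery was called for 2 of the 10 genes. The interaction, the log2 genotype difference after tFCI minus that in Sham, was called higher for 1 member (1.25% of all tested genes) and lower for 1 (2.57% of all). It was 2.98 ± 0.50 for *Mmp14* (adjusted p = 0.00370), with 3.64 within batch 1 and 2.77 within batch 2, and 3.83 without miKO-Sham replicate 3 (adjusted p = 1.57e-04). For *Mmp2* it was -1.40 ± 0.27 (adjusted p = 0.0101), with -2.16 and -0.98 within the batches, and it missed the threshold in batch 2 alone (-1.05, adjusted p = 0.0671). For *Mmp3* and *Timp1* no value is given, since both Sham groups held at most 5 counts. For the remaining genes it was not called. For *Adamts1* the value was 0.12 ± 0.19 (95% interval -0.25 to 0.49), and the intervals of *Mmp9*, *Mmp12* and *Mmp13* included 0 as well. Before adjustment those of *Mmp19* (0.80 ± 0.32, 0.16 to 1.43, adjusted p = 0.208) and *Timp2* (-0.51 ± 0.24, -0.97 to -0.04, adjusted p = 0.282) did not. A dependence on surgery is thus not excluded for genes without a call.

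**Figure D2:**
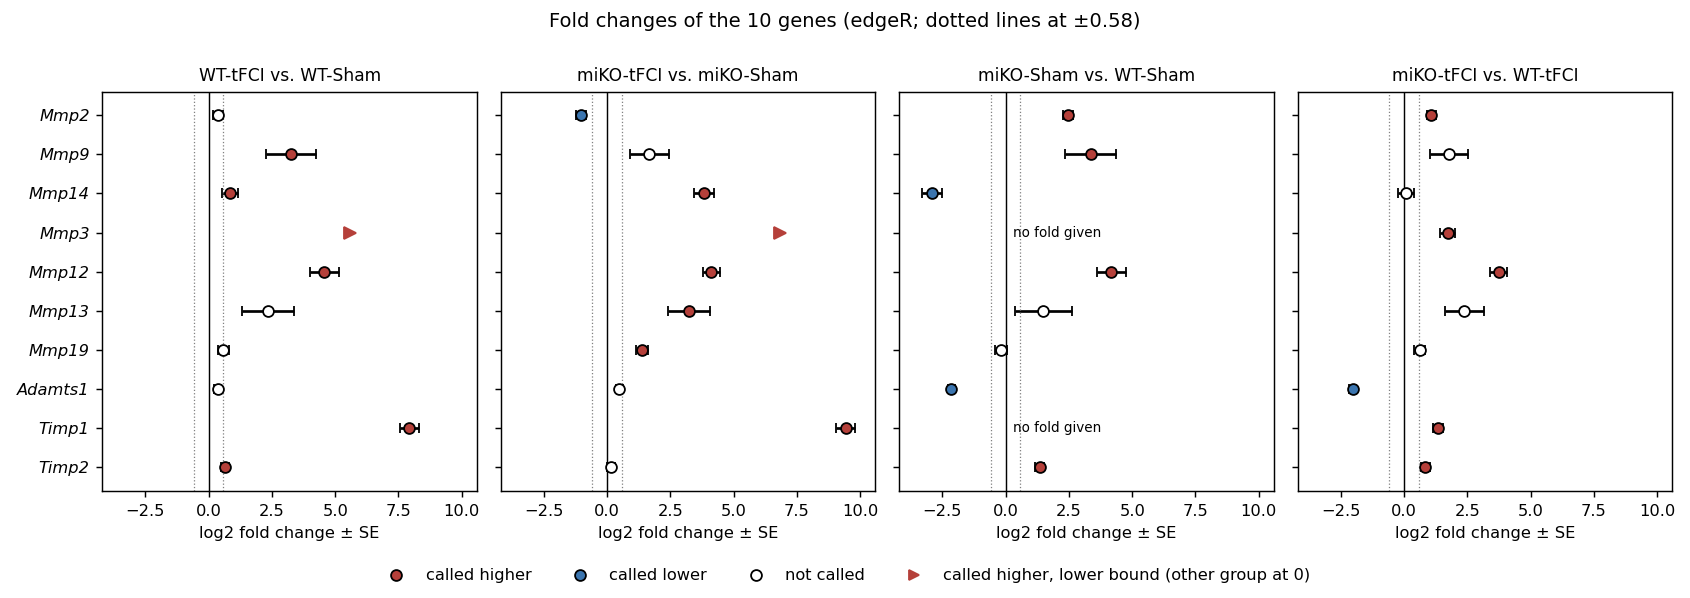
Log2 fold change with its SE from edgeR for each gene (rows) in 4 comparisons (panels), with red points called higher, blue called lower and open points not called. Triangles give a lower bound for *Mmp3*, whose Sham libraries were all at 0, and the fitted values of *Timp1* after tFCI depend on a prior count, since its Sham libraries held almost no counts. *Adamts1* is near -2 in both genotype panels, and *Mmp14* is at -2.90 in Sham and 0.08 after tFCI.

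*Mmp3* (ENSMUSG00000043613, chr9:7445822-7455975), stromelysin 1, cleaves proteoglycans, laminin and fibronectin and activates the MMP9 precursor. It had 0 counts in all 6 Sham libraries, which allows up to 3 counts per library or about 0.34 CPM in WT-Sham and 0.41 CPM in miKO-Sham. After tFCI it was at 33.8, 9.93 and 4.02 CPM in WT and 85.1, 23.1 and 31.1 CPM in miKO. The mean of WT-tFCI was at least 47.5-fold higher than that floor, and its lowest library at least 12.0-fold (adjusted p = 4.86e-06). In miKO the mean was at least 115-fold higher (adjusted p = 1.04e-06). Without replicate 1 of the tFCI group these bounds on the mean were 20.8-fold in WT and 66.9-fold in miKO. Replicate 1, from batch 1, was the highest in both tFCI groups, and the groups overlapped unless batch was taken into account. The difference of miKO-tFCI against WT-tFCI was 1.72 ± 0.30 (adjusted p = 0.00572), with 1.33 within batch 1 and 2.04 within batch 2, and it was not called without the batch term (1.55, adjusted p = 0.286).

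*Mmp12* (ENSMUSG00000049723, chr9:7344381-7369499), the macrophage metalloelastase, was higher in every comparison between groups. It was at 0.12, 0.22 and 0.82 CPM in WT-Sham (11 counts in all), 9.16, 9.99 and 3.84 in miKO-Sham, 12.9, 10.2 and 6.95 in WT-tFCI and 100.1, 116 and 182 in miKO-tFCI. WT-Sham lay below all others, miKO-Sham and WT-tFCI overlapped, and miKO-tFCI lay above all. Pooled over libraries, the ratio to WT-Sham was 18.6 in miKO-Sham (95% counting interval 10.1 to 37.9) and 24.6 in WT-tFCI (13.5 to 49.9), intervals that cover counting error only. The log2 fold change of miKO against WT was 4.18 ± 0.58 in Sham (adjusted p = 1.32e-04) and 3.73 ± 0.34 after tFCI (adjusted p = 1.16e-05, 13.3-fold). The increase after tFCI was 4.57 ± 0.56 in WT (adjusted p = 1.92e-05) and 4.12 ± 0.35 in miKO (adjusted p = 7.84e-07). Of the 11 counts in WT-Sham, 8 were in replicate 3, and without it the log2 values against WT-Sham were 5.33 for miKO-Sham (adjusted p = 2.00e-04) and 5.69 for WT-tFCI (adjusted p = 3.74e-05). The interaction was -0.45 ± 0.73 (adjusted p = 0.815, 95% interval -1.88 to 0.97). *Clec4d*, *Cd44* and *Adam8* had the most similar group means, with differences of 0.57 to 0.74. An exonic stretch of 157 bases (2.17% of its exons) is shared with *Mmp1b* on the other strand.

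*Mmp13* (ENSMUSG00000050578, chr9:7272514-7283331), a collagenase of fibrillar collagens, had the lowest level per kb of exon after tFCI, with 2.17, 3.52 and 6.55 CPM in miKO-tFCI and at most 1.32 CPM in any other library. In miKO it was higher after tFCI (3.24 ± 0.84, adjusted p = 0.00626), and the pooled ratio was 8.81 (95% counting interval 4.6 to 18.9). This call held with each library left out, while the value ran from 2.63 (adjusted p = 0.0393, without miKO-tFCI replicate 3) and 2.65 (without miKO-Sham replicate 2) to 3.83 (without miKO-Sham replicate 3) and 3.95 (without miKO-tFCI replicate 1). All miKO-tFCI libraries lay above all WT-tFCI libraries, but the difference of 2.38 ± 0.77 missed the threshold (adjusted p = 0.0644), with 0.63 within batch 1 and 2.62 within batch 2. DESeq2 called it (adjusted p = 0.0256). *Mmp19* (ENSMUSG00000025355, chromosome 10), a secreted enzyme with basal lamina substrates, was at 7.28 to 15.5 CPM in WT-Sham, 8.33 to 10.8 in miKO-Sham, 12.7 to 22.5 in WT-tFCI and 23.2 to 27.4 in miKO-tFCI. It rose after tFCI in miKO (1.38 ± 0.23, adjusted p = 2.90e-04), and in WT the value of 0.58 ± 0.23 missed the threshold (adjusted p = 0.0567). Its counts are uncertain, since 28.3% of its exon bases are shared with *Tmem198b* and *Gm47093* on the other strand and the library kit does not mark strand.

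**Figure D3:**
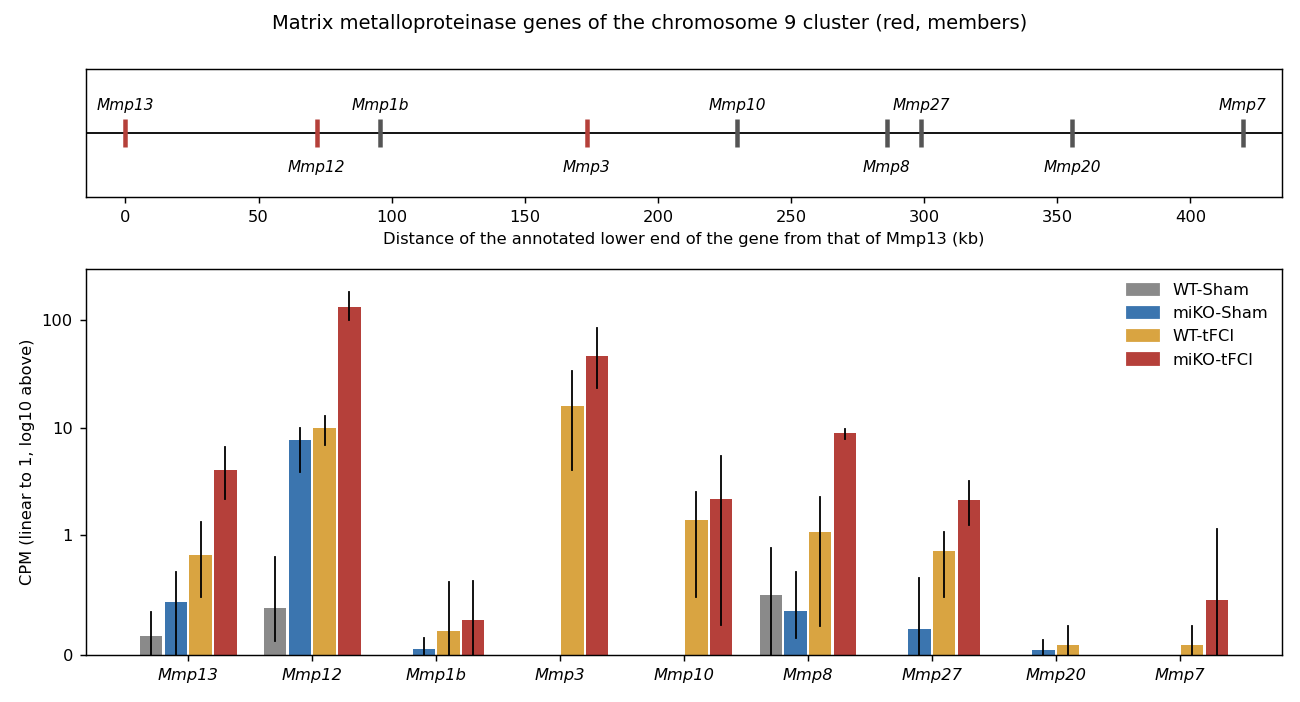
Matrix metalloproteinase genes of the chromosome 9 cluster, with their distance in kb from *Mmp13* in the upper panel (members in red) and, in the lower panel, mean CPM per group as bars from 0 with the lowest and highest library as lines, on an axis that is linear to 1 and logarithmic above. *Mmp12* and *Mmp3* reach means of 133 and 46.5 CPM in miKO-tFCI, and the other genes stay below 10 CPM.

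Around these members in the cluster, *Mmp8*, the neutrophil collagenase, was at 7.92 to 9.81 CPM in miKO-tFCI and at no more than 2.27 CPM in WT-tFCI. Its difference between these groups was 3.28 ± 0.66 (adjusted p = 0.00610). *Mmp8* is itself one of the neutrophil markers, which without *Csf3r* summed to 162 to 218 CPM in WT-tFCI and 728 to 1003 CPM in miKO-tFCI. *Mmp8* and the other markers of the whole list were called higher between these groups for 7 of 11 tested. The part of neutrophils in the *Mmp8* counts was not tested. *Mmp27* was called higher after tFCI in both genotypes (adjusted p = 0.0106 in WT and 0.0210 in miKO) at means of 0.87 and 2.15 CPM. It had 0 counts in WT-Sham, 5 in miKO-Sham, 22 in WT-tFCI and 57 in miKO-tFCI. *Mmp27* and *Mmp8* had enough counts in all replicates of miKO-tFCI only. For both, a difference between groups was thus a condition for being tested. *Mmp10*, next to *Mmp3*, had 0 counts in all Sham libraries, 35 in WT-tFCI and 61 in miKO-tFCI, and was too low to be tested. *Mmp1b*, *Mmp20* and *Mmp7* had at most 13 counts in any group.

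*Adamts1* (ENSMUSG00000022893, chr16:85793827-85803113, - strand) encodes a secreted proteinase that cleaves the proteoglycans aggrecan and versican. It was 4.42-fold lower in miKO-Sham than in WT-Sham and 4.07-fold lower in miKO-tFCI than in WT-tFCI. Its CPM was 267, 322 and 301 in WT-Sham and 65.7, 66.5 and 68.1 in miKO-Sham. After tFCI it was 334, 397 and 411 in WT and 69.8, 99.9 and 114 in miKO. Every miKO library lay below every WT library. The log2 differences were -2.15 ± 0.14 (adjusted p = 1.68e-07) in Sham and -2.03 ± 0.14 (adjusted p = 9.13e-07) after tFCI, and neither was lost under any of the 21 alternatives run. After tFCI it was higher by 0.36 ± 0.13 in WT and 0.48 ± 0.14 in miKO (adjusted p = 0.0454 and 0.0117), below the fold threshold. *Olfml2b* and *Tspan7* had the most similar group means (0.11 and 0.13).

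Of the inhibitors, *Timp2* (ENSMUSG00000017466, chromosome 11), which also takes part in activation of the MMP2 precursor on the cell surface, was the most abundant member per kb of exon in every group. It was at 530, 508 and 540 CPM in WT-Sham, 1432, 1389 and 1163 in miKO-Sham, 761, 848 and 872 in WT-tFCI and 1058, 1674 and 1731 in miKO-tFCI. Every miKO library lay above every WT library of either condition. The log2 difference of miKO against WT was 1.34 ± 0.17 (adjusted p = 5.61e-05) in Sham and 0.84 ± 0.17 (adjusted p = 0.00632) after tFCI. After tFCI *Timp2* rose in WT (0.65 ± 0.17, adjusted p = 0.00709), and this call was lost without WT-Sham replicate 2 (0.55, adjusted p = 0.0514). In miKO the value was 0.14 ± 0.17 (adjusted p = 0.516, 95% interval -0.19 to 0.47). *Msn* had the most similar group means (0.03).

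*Timp1* (ENSMUSG00000001131, chromosome X), an inducible inhibitor of most soluble MMPs, had 4 counts in WT-Sham and 3 in miKO-Sham in all, every one of them in replicate 1. After tFCI it was at 88.9, 16.7 and 20.96 CPM in WT and 182, 53.5 and 54.4 CPM in miKO. Pooled over libraries the ratio of tFCI to Sham was 284 in WT (95% counting interval 110 to 1040, adjusted p = 2.70e-09) and 758 in miKO (259 to 3680, adjusted p = 3.40e-09). Each ratio thus rests on 1 Sham library. The other Sham libraries were at 0, and against their floor of 3 counts per library the mean after tFCI was at least 131-fold higher in WT and at least 242-fold higher in miKO. Replicate 1 was the highest in both tFCI groups, and the groups overlapped unless batch was taken into account. The log2 difference of miKO-tFCI against WT-tFCI was 1.35 ± 0.19 (adjusted p = 4.65e-04), with 1.04 within batch 1 and 1.52 within batch 2, and without the batch term it was 1.20 and not called (adjusted p = 0.322). *Lum*, *Tnc* and *Mmp3* had the most similar group means (0.15, 0.22 and 0.41).

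*Timp1* and *Mmp3* moved with the markers of fibroblasts and mural cells from library to library. These markers summed to 878, 200 and 190 CPM in WT-tFCI and to 1802, 476 and 576 CPM in miKO-tFCI, so that replicate 1 was again the highest in both groups. Per 100 CPM of these markers, *Timp1* was at 10.1, 8.36 and 11.0 CPM in WT-tFCI and at 10.1, 11.2 and 9.44 CPM in miKO-tFCI, and the groups overlapped. *Mmp3* was at 3.85, 4.96 and 2.12 CPM per 100 CPM in WT-tFCI and at 4.72, 4.85 and 5.4 CPM in miKO-tFCI, with overlap as well. Replicate 1 was also the highest in some other marker lists. Endothelial markers summed to 182, 66.4 and 64.6 CPM in WT-tFCI and 304, 121 and 114 in miKO-tFCI. Astrocyte markers summed to 280, 178 and 167 CPM and to 566, 209 and 232, and monocyte markers to 218, 83.8 and 78.1 CPM and to 652, 331 and 409. In each of these lists replicate 1 was the highest, and miKO-tFCI lay above WT-tFCI within each batch. The association was thus not particular to markers of fibroblasts and mural cells. Markers of microglia, neutrophils and border-associated macrophages were instead lowest in replicate 1 of both tFCI groups. The part of any of these cells in the *Timp1* and *Mmp3* counts was not tested, and these ratios were taken after the values had been seen.

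**Figure D4:**
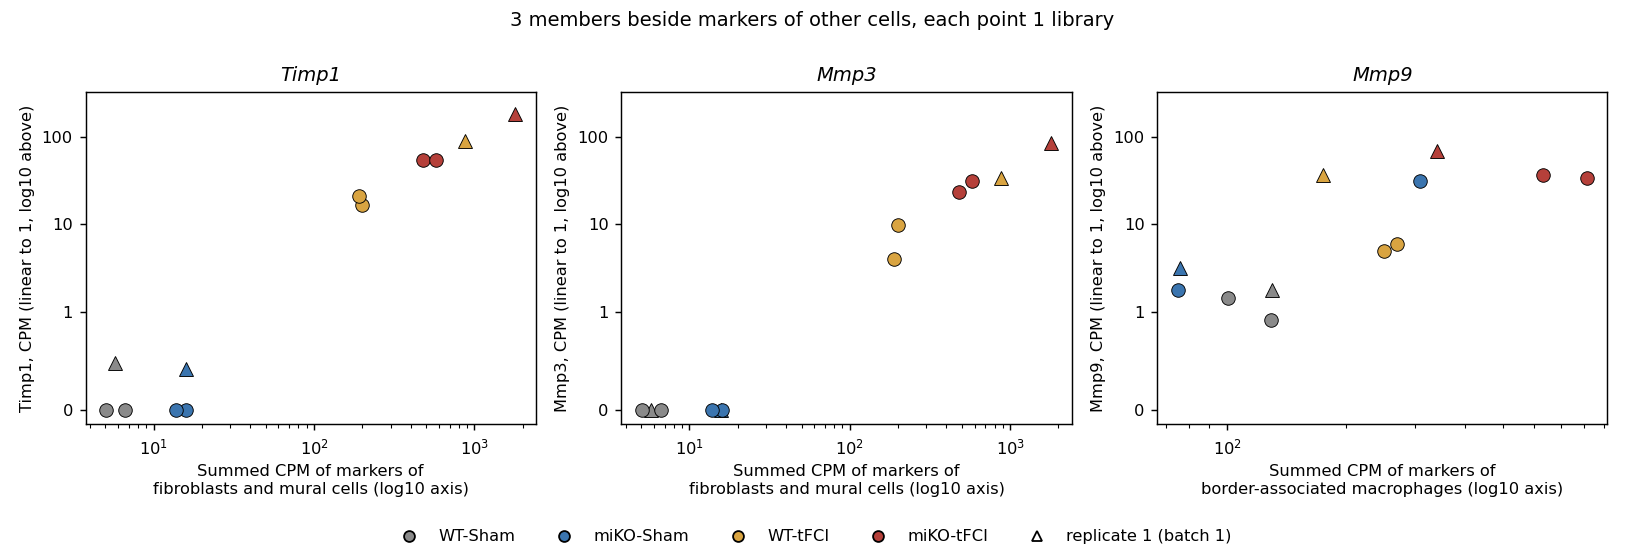
CPM of *Timp1*, *Mmp3* and *Mmp9* (vertical, linear to 1 and logarithmic above) against the summed CPM of markers of fibroblasts and mural cells or of border-associated macrophages (horizontal, logarithmic), each point 1 library and triangles replicate 1. The tFCI libraries of *Timp1* lie between 8.36 and 11.2 CPM per 100 CPM of markers in both genotypes, and miKO-Sham replicate 3 stands apart for *Mmp9* at 31.4 CPM.

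Per kb of exon, the order of levels in WT-Sham was *Timp2* (135 CPM per kb), *Adamts1* (56.0), *Mmp2* (10.9), *Mmp14* (6.37) and *Mmp19* (3.24), each above the next in all libraries, with the remaining 5 genes at no more than 0.54 in any library. In miKO-Sham *Mmp2* (60.9) and then *Adamts1* (12.6) followed *Timp2* (341), without overlap. In WT-tFCI *Timp2* (212) came first, and *Adamts1* (71.8) and *Timp1* (47.5) overlapped behind it. In miKO-tFCI *Timp2* (382) and *Timp1* (109) stood above all others. From *Mmp2* (29.8) over *Mmp3* (25.8), *Mmp12* (18.4), *Adamts1* (17.8) and *Mmp9* (13.2) to *Mmp14* (12.6), each gene overlapped the next. The inhibitors together made up 61.6% to 65.7% of the summed level per kb of the 10 genes in WT-Sham, 80.0% to 81.3% in miKO-Sham, 67.9% to 69.3% in WT-tFCI and 76.5% to 81.6% in miKO-tFCI. The share of *Adamts1* was 24.2% to 28.7% in WT-Sham and 2.69% to 3.50% in miKO-Sham.

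**Figure D5:**
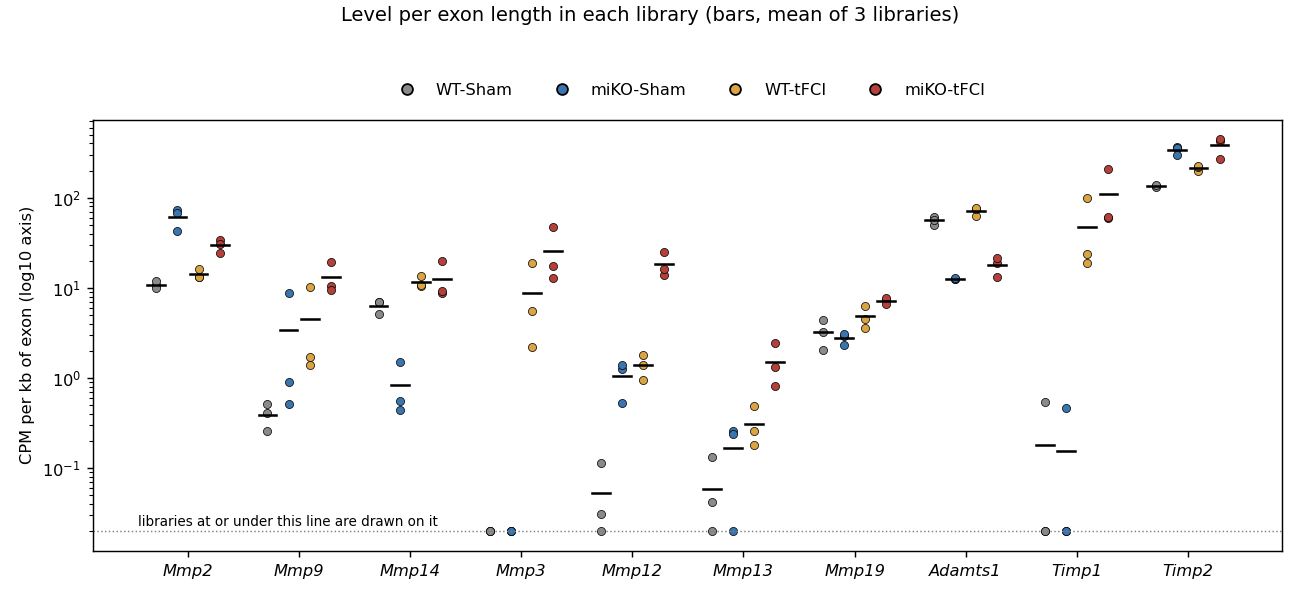
Level of each gene per library in CPM per kb of exon on a logarithmic axis, colored by group, with bars at the mean of 3 libraries and libraries at or near 0 drawn on the dotted line. *Timp2* is the highest in every group, and *Mmp2* (60.9) stands above *Adamts1* (12.6) in miKO-Sham, the reverse of WT-Sham (10.9 and 56.0).

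The counts called in the next 5 lists are to be read beside the shares of all tested genes. These were 20.9% higher and 11.7% lower in WT-tFCI vs. WT-Sham and 21.9% and 13.9% in miKO-tFCI vs. miKO-Sham. They were 4.08% and 4.71% in miKO-tFCI vs. WT-tFCI and 8.58% and 6.80% in miKO-Sham vs. WT-Sham. Some genes of these lists were near 0 in Sham and passed the filter through tFCI libraries alone. For such genes a rise after tFCI was a condition for being tested, which these shares do not take into account. Among other genes of the same system, 8 of 16 further *Mmp* genes were tested. After tFCI, 4 were called higher and 1 lower in WT, and 5 higher in miKO, with *Mmp25*, a leukocyte membrane-type enzyme, higher by 3.12 ± 0.92 in WT (adjusted p = 0.0151). In miKO-Sham 3 were lower than in WT-Sham, among them *Mmp28* (-2.18 ± 0.50, adjusted p = 0.00622), whose counts share 12.0% of exon bases with a gene on the other strand. In miKO-tFCI vs. WT-tFCI 1 was higher, *Mmp8*. Of 18 further *Adamts* genes, 12 were tested. After tFCI 8 were higher and 1 lower in WT and 10 higher and 1 lower in miKO. Of the 12, *Adamts14* was at 0 CPM in all Sham libraries. *Adamts5*, *Adamts8*, *Adamts15* and *Adamts20* were at no more than 0.42 CPM in any Sham library. These genes were tested through the tFCI libraries alone. *Adamts16* was at 22.3 CPM in WT-Sham and 1.98 in miKO-Sham (-3.47 ± 0.33, adjusted p = 4.56e-06) and at 12.3 in WT-tFCI and 0.66 in miKO-tFCI (-4.19 ± 0.38, adjusted p = 1.15e-05), the same direction as *Adamts1*. It was the only one of the 12 called in miKO-tFCI vs. WT-tFCI, and in Sham 1 other, *Adamts10*, was lower (-0.91 ± 0.19, adjusted p = 0.00366).

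Of 11 *Adam* genes, 9 were tested. *Adam8*, a leukocyte member, was called higher in all comparisons between groups. Its mean was 2.37 CPM in WT-Sham, 41.7 in miKO-Sham, 101 in WT-tFCI and 333 in miKO-tFCI, and the log2 difference of miKO against WT was 4.17 ± 0.42 in Sham (adjusted p = 7.32e-06) and 1.69 ± 0.32 after tFCI (adjusted p = 0.00391). *Adam15* was lower in miKO-tFCI than in WT-tFCI (-0.95 ± 0.13, adjusted p = 3.25e-04), with 20.6% of its exon bases shared with a gene on the other strand. In all, 3 *Adam* genes were higher (20.9% of all tested genes) and 1 lower (11.7% of all) after tFCI in WT, and 4 were higher in miKO (21.9% of all). In miKO-tFCI vs. WT-tFCI 2 were higher (4.08% of all) and 1 lower (4.71% of all). In miKO-Sham vs. WT-Sham 1 was higher (8.58% of all) and 1 lower (6.80% of all).

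Of 19 genes of the plasminogen system and other regulators of MMPs, 18 were tested. After tFCI 11 were called higher in WT and 12 in miKO, 7 were higher in miKO-tFCI than in WT-tFCI, and 5 in miKO-Sham than in WT-Sham. *Plaur*, the urokinase receptor that localises plasmin formation to the cell surface, was at 34.2 CPM in WT-Sham and 209 in miKO-Sham (2.61 ± 0.15, adjusted p = 4.58e-08). *Cd44*, a hyaluronan receptor that docks MMP9, was at 0.89 CPM in WT-Sham and 13.2 in miKO-Sham (3.86 ± 0.25, adjusted p = 1.59e-07) and at 34.5 in WT-tFCI and 115 in miKO-tFCI (1.76 ± 0.16, adjusted p = 1.12e-05). *Lcn2*, which binds and stabilises MMP9, was higher in miKO-tFCI than in WT-tFCI (2.48 ± 0.51, adjusted p = 0.00680), and so was *Serpinb2*, an inhibitor of plasminogen activators (4.002 ± 0.70, adjusted p = 0.00575). The mean of *Lcn2* was 22.1 CPM in WT-tFCI and 130 in miKO-tFCI. Neutrophil markers other than *Csf3r* summed to 162 to 218 and 728 to 1003 CPM in these groups. The part of neutrophils in the *Lcn2* counts was not tested. *Timp3*, the matrix-bound inhibitor, rose in WT-tFCI (5.41 ± 0.66, adjusted p = 1.96e-05), with 21.3% of its exon bases shared with *Syn3* on the other strand. The interaction was called lower for 3 of the 18 (2.57% of all tested genes).

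Of 18 matrix genes that are substrates of these enzymes, 15 were tested, and 14 rose after tFCI in each genotype. Some were tested through the tFCI libraries alone, such as *Tnc*, at 0 CPM in WT-Sham and at most 0.14 CPM in miKO-Sham. *Fn1* (fibronectin) was at 1.93 CPM in WT-Sham and 369 in WT-tFCI (7.65 ± 0.64, adjusted p = 4.59e-07), and *Col4a1*, a collagen of the basal lamina, at 0.28 and 40.7 (6.85 ± 0.47, adjusted p = 6.46e-08). In miKO-tFCI vs. WT-tFCI 5 were higher, with *Col3a1* at a mean of 223 against 111 CPM (1.20 ± 0.27, adjusted p = 0.0118). *Col1a1* and *Col1a2* are among the fibroblast markers given above, which rose in the same libraries. No matrix gene was called by edgeR in miKO-Sham vs. WT-Sham, where 6 were higher and 0 lower at an unadjusted p under 0.05, and DESeq2 called none. In the other comparisons between groups, no gene of these 5 lists was called by edgeR in a direction that is not mentioned, where an unadjusted p under 0.05 was reached by 0 to 3 genes and DESeq2 called 0 or 1.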

How the data were processed

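RNA-seq libraries of sorted microglia (12, in 4 groups of 3 replicates) were grouped by their labels. The submitters' processing notes name FastQC 0.11.9, Trim Galore, HISAT2 2.2.1, SAMtools, HTSeq 1.99.2 and the builds mm10 and GRCm38.p6, and the use of strand in counting is not given in the sources used here. The deposited values are the authors' raw read counts per gene, without normalization. Of the counted reads, 30.7% to 38.5% lay on genes, and the lines for other reads were left out. Identifiers were matched to the GENCODE M21 annotation of GRCm38 (55141 of 55401).

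The analysis used edgeR 4.0.16 in R 4.3.3. Low genes were removed with filterByExpr (minimum count 10), TMM factors lay between 0.864 and 1.11, and one quasi-likelihood fit with terms for group and batch covered the 12 libraries and 16451 genes, over which p-values were adjusted. CPM used the TMM library sizes, and level per kb the summed exon length. Thresholds followed the study's methods, which used DESeq2. Overlap of groups was judged on CPM, or, with batch taken into account, on log2 CPM (prior count 2) after removal of batch means. No fold was given where both groups held at most 5 counts, a floor of 3 counts per library stood for groups at 0, and groups with few counts got an exact 95% interval of the pooled ratio. Depth limits genes with few counts, and intervals and floors cover counting error only. Since each replicate pools 3 to 4 hemispheres, p-values measure the spread between pools.

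All 10 members were named, with up to 4 called genes of each related list per comparison (more than 3 counts in a library of each group, no overlap, by size of the change), neighbours in the chromosome 9 cluster, and the 3 most similar genes by the root mean square difference of centred group means on log2 CPM, of which those with the least difference are given. The members and lists were chosen with earlier results of these data known, and the cluster after its members' values were seen. Replicates 1 and 2 of miKO-Sham lay closest of all replicate pairs (chi-square per degree of freedom 2.82, against 3.65 to 76.6) but differed beyond sampling noise and were kept, although repeat libraries of the same cells cannot be told apart from separate mice. Alternatives were another normalization, other filters, DESeq2 1.42.0, no batch term, a replicate block, the groups compared only, batch 2 only, no fold threshold and each library left out. The steps were tested on simulated data with known changes.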

Additional observations from a re-analysis of the deposited data

Results flagged for a closer look

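The genotype effect differed between the surgeries for 2 members by the interaction term of the edgeR model. For *Mmp14* the log2 difference of miKO against WT after tFCI minus that in Sham was 2.98 (adjusted p = 0.00370), and 3.83 without miKO-Sham replicate 3. Its level was 2.64 to 9.09 CPM in miKO-Sham and 30.8 to 117 CPM in the other groups. For *Mmp2* the same term was -1.40 (adjusted p = 0.0101), with miKO above WT in both conditions and the larger difference in Sham (5.56-fold against 2.12-fold). Groups of 3 libraries were not tested for single outlying libraries.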

How the results depend on the processing

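The number of members called held within 1.5 times under all alternatives but 2. With at least 10 counts required in every library, 2 members were called in WT-tFCI vs. WT-Sham, 3 in miKO-tFCI vs. WT-tFCI and 3 in miKO-tFCI vs. miKO-Sham, because *Mmp3*, *Mmp12*, *Mmp13*, *Mmp9* and *Timp1* had too few counts to be tested. In batch 2 only, the interaction was called for 1 member, *Mmp14*. Leaving out single libraries gave 4 to 6 members in WT-tFCI vs. WT-Sham, 6 or 7 in miKO-tFCI vs. WT-tFCI, 5 or 6 in miKO-Sham vs. WT-Sham, 7 or 8 in miKO-tFCI vs. miKO-Sham and 2 in the interaction. Same-numbered libraries did not deviate together throughout (11 of 18 correlations of deviations were over 0.1, and 7 of 12 libraries were closest to their own number), so the numbers are not taken as pairs. With the replicate block, 7, 6, 6, 8 and 2 members were called in the same order. Of 935 values of single members under alternatives, 878 kept direction and side of the threshold, 25 lost a call, 26 gained one and 6 changed sign, none of which was called. These were *Mmp14* in miKO-tFCI vs. WT-tFCI in batch 2 only (-0.28) and without miKO-tFCI replicate 1 (-0.46), *Mmp19* in miKO-Sham vs. WT-Sham in batch 2 only (0.017), and the interactions of *Mmp9* without miKO-Sham replicate 3 (1.37), *Mmp12* in batch 2 only (0.44) and *Mmp13* without WT-Sham replicate 1 (-0.41). Over all libraries left out in turn, the values ran from -0.46 to 0.28 for *Mmp14* in miKO-tFCI vs. WT-tFCI, from -2.30 to 1.37 for the *Mmp9* interaction and from -0.41 to 1.57 for the *Mmp13* interaction. The cause was not tested. *Mmp9* in miKO-tFCI vs. WT-tFCI gained a call under 5 of 20 alternatives, which were no filter beyond 1 count (1.75, adjusted p = 7.71e-13), batch 2 only (2.64, adjusted p = 0.0402), the groups compared only (1.957, adjusted p = 1.28e-04), without miKO-Sham replicate 1 (1.95, adjusted p = 0.0466) and without miKO-Sham replicate 3 (1.93, adjusted p = 0.00179).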
